A study of Homo sapiens with 4 samples.

Results

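The genes described here are serum response factor (*SRF*), its coactivators *MRTFA* and *MRTFB*, and genes of the actin cytoskeleton. The set holds 42 genes, listed by symbol for what is known of their function, when earlier results of these data were already known. Probes were assigned to them through RefSeq accessions. Of the 42 genes, 41 were measured with 64 probes, among 16662 named genes measured in all. *CNN2* had no probe in use. The members fall into 9 roles, namely the transcription factor and its coactivators, actins, proteins of monomer binding and filament turnover, cross-linkers and bundlers, calponins and caldesmon, tropomyosins, chains of non-muscle myosin II, proteins of focal adhesions with other LIM domain proteins, and adducins.

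RNA was hybridized to 4 one-colour Agilent arrays. The cells of all 4 arrays were labelled as A549, an established human lung adenocarcinoma line, grown in RPMI 1640. They were transfected with *miR-486-5p* (1 array) or *miR-486-3p* (1 array) at 10 nM, or received the transfection reagent alone (mock, 2 arrays). The reagent, Lipofectamine RNAiMAX, was given in every group. *miR-486-5p* and *miR-486-3p* are the guide and the passenger strand of 1 precursor, and each was compared with the reagent alone. None of the 4 arrays holds cells given a control miRNA. A difference from mock may therefore include a response to the delivery of any small RNA, besides that to the strand's own sequence. The share of each was not tested. The time from transfection to RNA extraction is not given in the sources used here.

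SRF is a transcription factor that binds a short DNA element called the CArG box. Monomeric actin holds the coactivators MRTFA and MRTFB in the cytoplasm. When actin is built into filaments the monomer pool shrinks, the coactivators enter the nucleus, and SRF drives transcription of actins and of many proteins that bind actin. SRF also works with the ternary complex factors, which respond to MAP kinase signalling and drive immediate early genes such as *FOS*. In epithelial tumour cells these genes build the stress fibres and focal adhesions with which cells spread, pull and migrate.

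The CArG boxes themselves are shown for the members that hold one close to their start, because this is the DNA element that SRF reads. The window searched ran from 250 bases before to 50 bases after the RefSeq start, and 39 of the 42 members had such a window (GRCh38.p14). *ACTB*, *MYL9* and *TAGLN* had none. The box was searched as an exact match to its 10-letter consensus, which reads the same on both strands. It was found in 5 of the 39 members (12.8%), against 351 of 27305 promoters of all genes (1.29%). The members were chosen for known ties to SRF and actin, so the larger share comes with the choice and is not a result. The capitals mark the box, and 10 bases are shown on either side, read along the gene's own strand.

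*SRF*, chr6:43171229-43171258, + strand: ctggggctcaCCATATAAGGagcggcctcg

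*SRF*, chr6:43171249-43171278, + strand: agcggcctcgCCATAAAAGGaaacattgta

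*ACTG1*, chr17:81512874-81512903, − strand: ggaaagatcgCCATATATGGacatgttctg

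*FLNA*, chrX:154374709-154374738, − strand: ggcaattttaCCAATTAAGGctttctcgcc

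*TPM4*, chr19:16067355-16067384, + strand: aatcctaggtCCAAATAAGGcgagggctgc

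*CNN2*, chr19:1026509-1026538, + strand: cgcctccaggCCTTATAAGGacatttgcgc

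All 6 boxes lie upstream of the start, and the promoter of *SRF* itself holds a pair of matches to the element that its own product binds. These matches are a description of the letters in the window. Absence of a match says nothing about more distant or inexact boxes.

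A level is the log2 of the processed signal of a gene's probes minus the 75th percentile of the signal on that array. It is a relative value for 1 gene across arrays, and levels of different genes are not compared, except where muscle markers are summed. A difference is a transfected array minus the mean of both mock arrays, on the log2 scale. The differences were tested with limma, a linear model fitted across all features, with Benjamini-Hochberg adjustment at 0.05. Each transfected group has 1 array. The spread therefore comes from the 2 mock arrays, and the transfected arrays are taken to scatter to the same degree. The small number of arrays limits how precise any value can be. Whether the mock arrays are separate cultures is not stated, so the p-values may measure technical spread. The mock arrays differed by a median of 0.0806 over the 41 members and by 0.277 at most, for *TPM4*. Both strands are set against the same mock arrays. Every value is from bulk RNA, in which fewer cells of a kind and less RNA per cell cannot be told apart.

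The keratin genes *KRT7*, *KRT8* and *KRT18* and the intermediate filament gene *VIM* were well above background on all 4 arrays. Some markers went against the label. *CDH1*, which encodes E-cadherin, had no probe above background. *AKR1B10*, an aldo-keto reductase gene known to be abundant in A549, was above background on 1 array, that of *miR-486-3p*. *CDKN2A*, known to be deleted in A549, was above background on all 4 arrays, with levels of 4.77 on each mock array, 4.39 with *miR-486-5p* and 2.54 with *miR-486-3p*. *CDKN2A* was looked at after the values were seen, and the origin of the cells was not tested. The groups are named as labelled.

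After *miR-486-3p* the actin cytoskeleton genes were mostly lower. Of the 41 members measured, 27 fell (65.9%), 4 rose (9.76%) and 10 did not pass limma. Of all named genes 28.4% fell and 28.6% rose. The median difference of the members was −0.65, and that of all named genes 0.05. Zyxin (*ZYX*), adducin beta (*ADD2*), smooth muscle actin (*ACTA2*), cofilin (*CFL1*) and gamma actin (*ACTG1*) fell the most, and transgelin (*TAGLN*), calponin 1 (*CNN1*), *TPM2* and *MYL6* were the members that rose. By size, 27 members lay below −0.5 and 4 above 0.5, against 27.8% and 30.5% of all named genes. A total of 33 members lay below both mock arrays and 7 above both (44.9% and 49.5% of all named genes). In the study, 5 members (*SRF*, *FBLIM1*, *AFAP1*, *SWAP70* and *ADD2*) stand in a list of putative targets of both strands that was chosen on these arrays, so their direction is not independent evidence. Of the 36 measured members outside that list, 23 fell and 4 rose, with a median of −0.64. The study also drew longer lists of putative targets of each strand from these arrays. Members on those lists were not set aside, so the 36 are not free of that choice either. With no filter on dim probes, which adds features to the adjustment, the calls of *MRTFA*, *ACTN4*, *SWAP70*, *TPM1*, *MYL9*, *VCL*, *TLN1* and *ADD3* were lost (limma adjusted p between 0.0598 and 0.063), and with the authors' log2 values those of *ACTN4*, *TPM1*, *MYL9* and *VCL* (0.0515 to 0.0828). The methods' t-test called 0 members lower and 0 higher after adjustment, and 0 of all named genes. At an unadjusted p below 0.05 it had 19 of 41 members, against 6152 of 16662 named genes.

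After *miR-486-5p* no member passed limma in either direction, as for all named genes (0% lower and 0% higher). At an unadjusted p below 0.05 there were 26 members (63.4%), 19 lower and 7 higher, against 41.6% of all named genes. By size alone, 16 members (39%) lay below −0.5 and 3 (7.32%) above 0.5, against 16.6% and 14.6% of all named genes. *CNN1*, not above background with *miR-486-5p*, is 1 of the 16, and 15 remain with *CNN1* at its bound. Of the 36 members outside the list of putative targets of both strands, 11 lay below −0.5 and 3 above 0.5. A total of 26 members lay below both mock arrays and 13 above both (42.2% and 47.1% of all named genes). The median was −0.30, against 0.03 for all named genes. The smallest adjusted p reached was 0.051, shared by 6 members, namely *SRF*, *ACTA2*, *FLNA*, *TAGLN2*, *CNN1* and *FBLIM1*. These members were lower, but genes outside the set that were higher, such as *FOS* and *FOSB*, shared the same value. It therefore marks no direction, and its count over all named genes is not given here. The count depended on the setting. With median scaling of the arrays, quantile normalization, the brightest probe of each gene or single probes in place of gene means, 6 members were called lower, and the intensity trend in limma called 20 lower and 8 higher. Of 16662 named genes, median scaling called 1055, quantile normalization 1196, the brightest probe 1249 and the intensity trend 6887, both directions together. The count for single probes is not given here. With the authors' log2 values, with no filter on dim probes and with the methods' t-test, none was called.

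**Figure D1:**
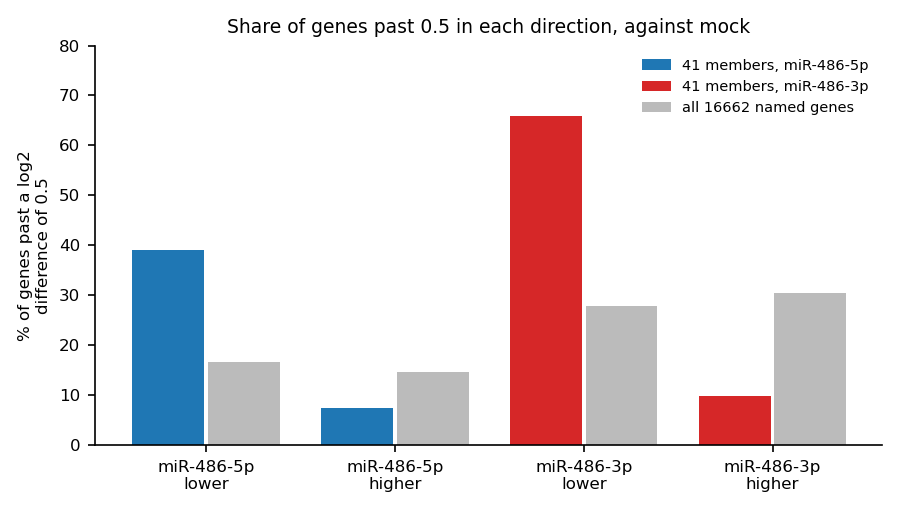
Percent of genes with a log2 difference from mock below −0.5 (lower) or above 0.5 (higher) after each strand. Coloured bars are the 41 members and grey bars all 16662 named genes; the members' bars reach 39% and 65.9% on the lower side, against 16.6% and 27.8% for all genes.

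**Figure D2:**
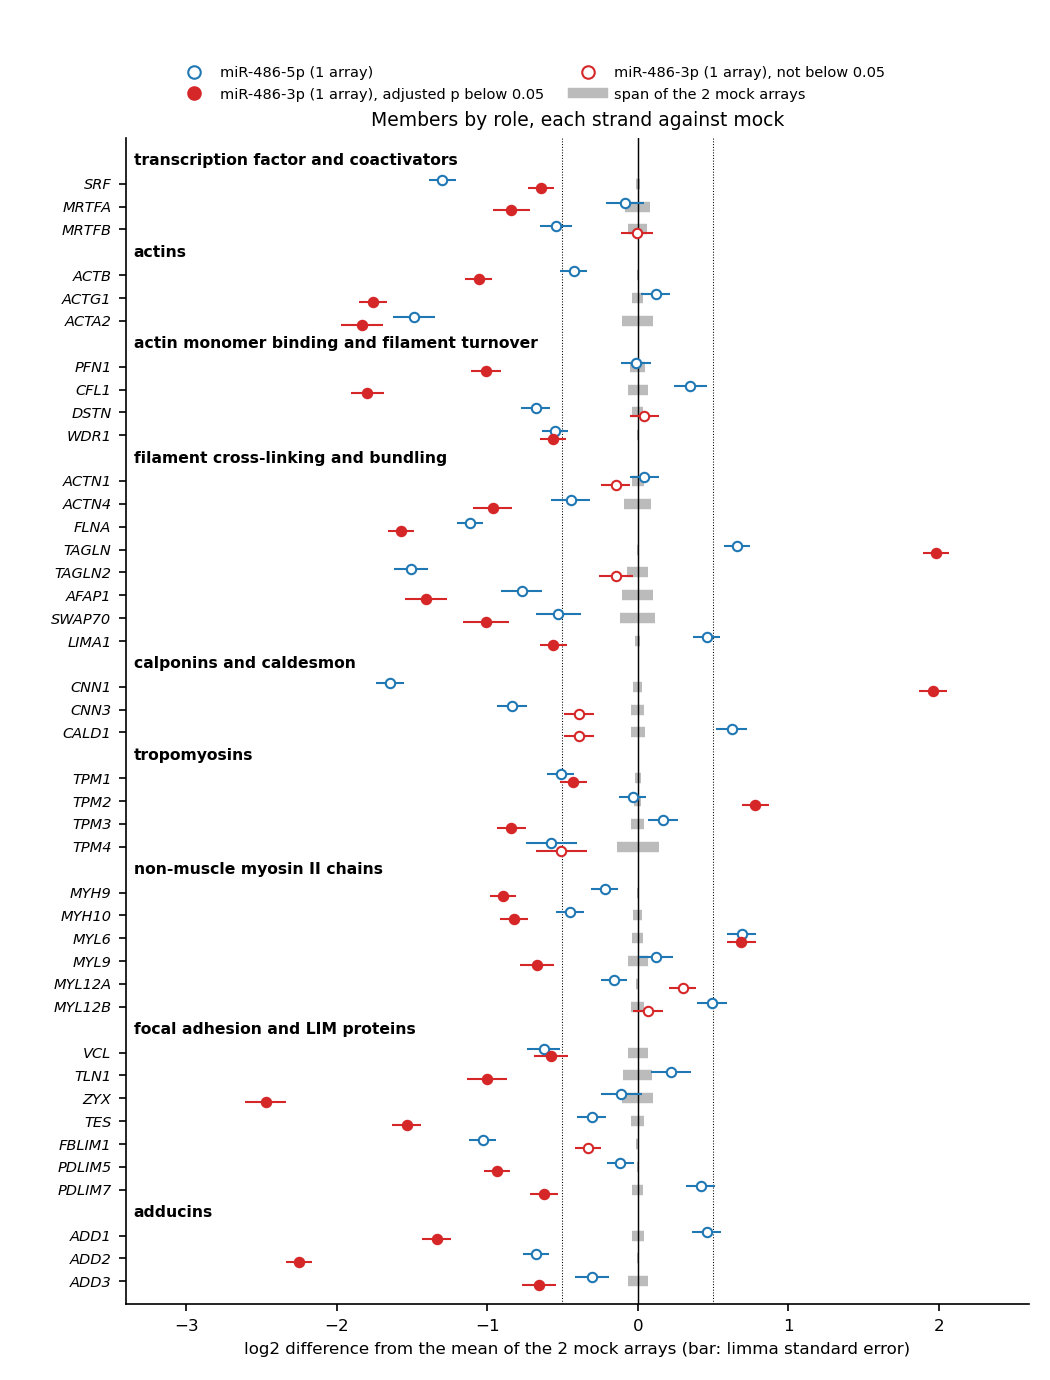
Log2 difference of each of the 41 members from the mean of the 2 mock arrays, by role. Blue circles are *miR-486-5p* and red circles *miR-486-3p* (1 array each), filled where the limma adjusted p is below 0.05; horizontal bars are limma standard errors, grey bars the span of the mock arrays and dotted lines ±0.5. The filled points are 27 on the left and 4 on the right, all of *miR-486-3p*.

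*SRF* lay below mock after both strands, and lower after *miR-486-5p*. Its levels were −0.55 and −0.58 in mock, −1.87 with *miR-486-5p* and −1.21 with *miR-486-3p*. The transfected arrays did not overlap with mock. After *miR-486-3p*, *SRF* fell by 0.64 ± 0.088 (limma SE) on the log2 scale, to 64.1% of mock (limma adjusted p = 0.0221). The difference after *miR-486-5p* was −1.30 ± 0.088, or 40.7% of mock (limma adjusted p = 0.051). The strands differed by 0.66 ± 0.102 (limma adjusted p = 0.0319).

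The coactivator *MRTFA* had levels of −0.16 and 0.01 in mock, −0.16 with *miR-486-5p* and −0.91 with *miR-486-3p*. Only the *miR-486-3p* array stood apart, with a fall of 0.84 ± 0.125 (limma adjusted p = 0.025). *MRTFB*, the related coactivator, showed levels of 1.01 and 0.89 in mock, 0.41 with *miR-486-5p* and 0.95 with *miR-486-3p*. Here the *miR-486-3p* array lay between the mock arrays (difference −0.0049), and the *miR-486-5p* array below both (difference −0.54, limma adjusted p = 0.0834). The difference between the strands passed limma for *MRTFA* (−0.75, adjusted p = 0.0437) but not for *MRTFB* (0.54, adjusted p = 0.061).

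**Figure D3:**
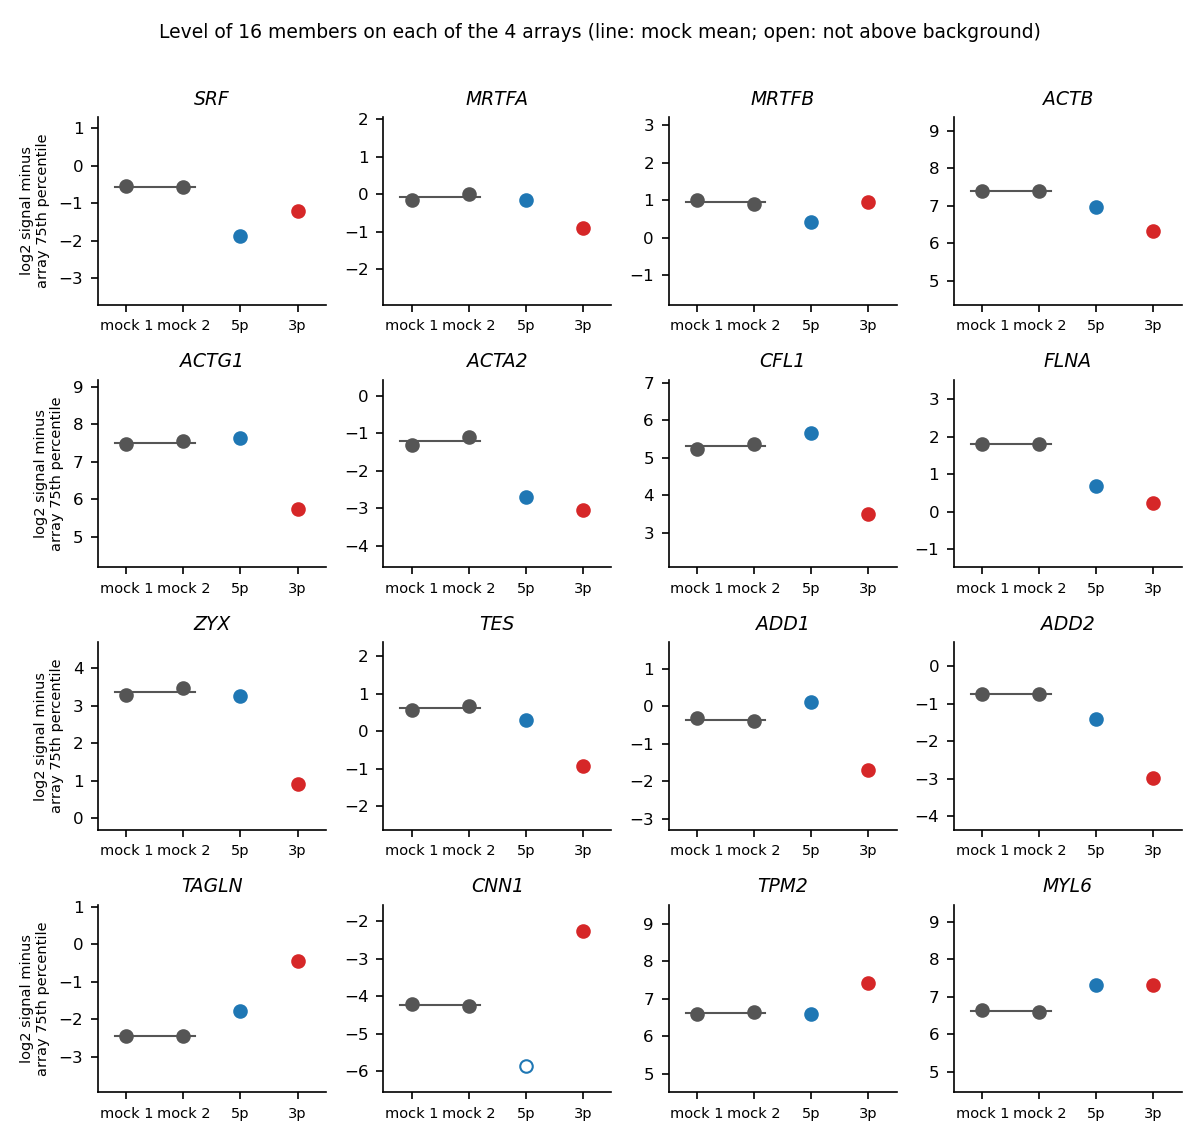
Level (log2 signal minus the 75th percentile of the array) of 16 members on the mock arrays (grey), the *miR-486-5p* array (blue) and the *miR-486-3p* array (red); the line is the mock mean, the open circle is not above background, and every panel spans the same number of log2 units. *SRF* is lower after *miR-486-5p* (−1.87) than after *miR-486-3p* (−1.21), while *ACTG1*, *CFL1*, *ZYX* and *ADD1* stand low on the *miR-486-3p* array alone.

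All 3 actins fell after *miR-486-3p*. *ACTG1*, which encodes the cytoplasmic gamma actin, had levels of 7.48 and 7.55 in mock, 7.63 with *miR-486-5p* and 5.75 with *miR-486-3p*. It fell by 1.76 ± 0.0948 after *miR-486-3p*, to 29.6% of mock (limma adjusted p = 0.00852), while its *miR-486-5p* array lay above both mock arrays by 0.12 on average (limma adjusted p = 0.433). The promoter of *ACTG1* holds 1 of the CArG boxes shown above.

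*ACTA2*, the smooth muscle alpha actin and a classical target of SRF, had levels of −1.31 and −1.10 in mock, −2.69 with *miR-486-5p* and −3.04 with *miR-486-3p*. Both transfected arrays were far below mock. It fell by 1.83 ± 0.139 after *miR-486-3p* (28.1% of mock, limma adjusted p = 0.0105), and the difference after *miR-486-5p* was −1.49 (35.7% of mock, limma adjusted p = 0.051). The strand difference of *ACTA2* did not pass limma (−0.35 ± 0.16, adjusted p = 0.189).

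Beta actin (*ACTB*), the other cytoplasmic actin, had levels of 7.39 and 7.38 in mock, 6.96 with *miR-486-5p* and 6.33 with *miR-486-3p*. Its order was mock, then *miR-486-5p*, then *miR-486-3p*. It fell by 1.06 ± 0.0873 after *miR-486-3p*, to 48.1% of mock (limma adjusted p = 0.0114). Its 2 probes gave −1.45 and −0.67 for that difference. *ACTB* and *ACTG1* are nearly identical in coding sequence and have many pseudogenes, so signal shared between their probes is uncertain. *ACTB*, *DSTN*, *TAGLN2*, *CNN1*, *TPM2* and *MYL6* are given on every array although they are not among the 10 largest called differences of members above background on all 4 arrays, a limit that *CNN1* misses with *miR-486-5p*, and were picked after their values were seen.

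Of the 4 genes of monomer binding and filament turnover, 3 fell after *miR-486-3p*. *CFL1* encodes cofilin, which severs and depolymerizes filaments. Its levels were 5.23 and 5.36 in mock, 5.65 with *miR-486-5p* and 3.50 with *miR-486-3p*. The strands lay on opposite sides of mock. *CFL1* fell by 1.80 ± 0.112 after *miR-486-3p*, to 28.8% of mock (limma adjusted p = 0.00924), its 2 probes giving −1.80 and −1.79. Profilin (*PFN1*), which feeds actin monomers to growing ends, fell by 1.01 (limma adjusted p = 0.0142). *WDR1*, a helper of cofilin, fell by 0.56 (limma adjusted p = 0.0269), but by its brighter probe alone the difference was −0.26 and did not pass (limma adjusted p = 0.114).

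Destrin (*DSTN*), a close relative of cofilin, had its low value on the other array. Its levels were 6.46 and 6.39 in mock, 5.75 with *miR-486-5p* and 6.47 with *miR-486-3p*. The *miR-486-5p* array alone stood apart, at −0.68 from mock (limma adjusted p = 0.0602). The strands differed by 0.72 ± 0.11 for *DSTN* and by −2.15 ± 0.13 for *CFL1* (limma adjusted p = 0.0311 and 0.013).

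Among the 8 cross-linkers and bundlers, 5 fell and 1 rose after *miR-486-3p*. Filamin A (*FLNA*), which joins filaments into networks and ties them to the membrane, had levels of 1.81 on each mock array, 0.70 with *miR-486-5p* and 0.24 with *miR-486-3p*. Both transfected arrays were far below mock. The equal mock levels come from averaging 2 probes that shifted in opposite directions between mock 1 and mock 2. One went from 3.58 to 3.77 and the other from 0.04 to −0.15, so the gene mean understates the spread. It fell by 1.57 ± 0.0871 after *miR-486-3p* (33.7% of mock, limma adjusted p = 0.00864), and the difference after *miR-486-5p* was −1.11 (46.2% of mock, limma adjusted p = 0.051).

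*TAGLN* was the cross-linker that rose. It encodes transgelin, a marker of smooth muscle that is driven by SRF. Its levels were −2.44 on each mock array, −1.78 with *miR-486-5p* and −0.46 with *miR-486-3p*. Both transfected arrays were above mock. It rose 3.96-fold after *miR-486-3p* (1.98 ± 0.0872, limma adjusted p = 0.00823), and its 2 probes gave 1.82 and 2.15. Its relative *TAGLN2*, found in many cell types, had levels of 2.19 and 2.33 in mock, 0.76 with *miR-486-5p* and 2.12 with *miR-486-3p*. Only the *miR-486-5p* array was far from mock, with a difference of −1.51 (35.2% of mock, limma adjusted p = 0.051).

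*AFAP1*, an adaptor that cross-links filaments and binds Src, had levels of −0.49 and −0.29 in mock, −1.16 with *miR-486-5p* and −1.79 with *miR-486-3p*. It lay below both mock arrays after each strand, and fell by 1.41 ± 0.137 after *miR-486-3p* (limma adjusted p = 0.0137). *SWAP70*, which binds filaments and signals to Rac, had levels of 1.38 and 1.15 in mock, 0.74 with *miR-486-5p* and 0.26 with *miR-486-3p*. It fell by 1.01 ± 0.151 after *miR-486-3p* (limma adjusted p = 0.0254). Both genes are in the study's list of putative targets of both strands. Of the remaining cross-linkers, *ACTN4* and *LIMA1* fell (−0.96 and −0.56, limma adjusted p = 0.0209 and 0.0279), and *ACTN1*, the other non-muscle alpha actinin, had a difference of −0.15 that did not pass.

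The calponins and caldesmon, which sit along filaments and restrain myosin, included 1 member that rose after *miR-486-3p* and none that fell. *CNN1*, the smooth muscle calponin, had levels of −4.20 and −4.26 in mock, −5.87 with *miR-486-5p* and −2.27 with *miR-486-3p*. With *miR-486-5p* its single probe was not well above background, so *CNN1* was at least 1.30-fold lower there than in mock. It rose 3.90-fold after *miR-486-3p* (1.96 ± 0.0924, limma adjusted p = 0.00823), and was at least 5.08-fold higher there than after *miR-486-5p*. *CNN3* and *CALD1* did not pass limma after either strand. *CALD1* had differences of 0.62 with *miR-486-5p* and −0.39 with *miR-486-3p*, and *CNN3* of −0.84 and −0.39.

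Tropomyosins wind along the filament and decide which proteins reach it. *TPM2* had levels of 6.61 and 6.65 in mock, 6.60 with *miR-486-5p* and 7.41 with *miR-486-3p*. The *miR-486-3p* array alone stood apart, and *TPM2* rose by 0.78 ± 0.0903 (1.72-fold, limma adjusted p = 0.0173). *TPM3* fell by 0.84 (limma adjusted p = 0.0174), with 6 probes between −0.95 and −0.70. *TPM1* fell by 0.43 (limma adjusted p = 0.0447), a call that was lost with quantile normalization (−0.27, limma adjusted p = 0.0917). *TPM4*, which has a CArG box, had differences of −0.58 with *miR-486-5p* and −0.51 with *miR-486-3p* that did not pass, with the widest gap between mock arrays of all members.

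Both heavy chains of non-muscle myosin II, the motor of stress fibres, fell after *miR-486-3p*. *MYH9* fell by 0.90 ± 0.0871 (53.8% of mock, limma adjusted p = 0.0136) and *MYH10* by 0.82 ± 0.0926 (56.5% of mock, limma adjusted p = 0.0166). The light chains were mixed. *MYL6*, the essential light chain, had levels of 6.66 and 6.59 in mock and of 7.32 on each transfected array. It rose by 0.69 ± 0.0954 after *miR-486-3p* (limma adjusted p = 0.0224), and had the same difference of 0.69 after *miR-486-5p* without passing (limma adjusted p = 0.0598). The regulatory light chain *MYL9* fell by 0.67 (limma adjusted p = 0.0302), while *MYL12A* and *MYL12B* had differences of 0.30 and 0.07 after *miR-486-3p* that did not pass. *MYL12A* and *MYL12B* are close in sequence, and shared signal is uncertain.

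Focal adhesion and LIM domain genes held the largest fall. Of the 7, 6 fell after *miR-486-3p* and none rose. *ZYX* encodes zyxin, which gathers at focal adhesions and repairs stress fibres under tension. Its levels were 3.28 and 3.48 in mock, 3.27 with *miR-486-5p* and 0.91 with *miR-486-3p*. The *miR-486-5p* array lay just under the lower mock array, and the *miR-486-3p* array far below all others. *ZYX* fell by 2.47 ± 0.138, to 18.0% of mock (limma adjusted p = 0.00866), and the strands differed by −2.36 ± 0.159 (limma adjusted p = 0.0135).

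Testin (*TES*), a LIM protein that binds zyxin, had levels of 0.58 and 0.66 in mock, 0.31 with *miR-486-5p* and −0.92 with *miR-486-3p*. It fell by 1.54 ± 0.098 after *miR-486-3p*, to 34.5% of mock (limma adjusted p = 0.00931). Talin (*TLN1*), which ties integrins to actin, fell by 1.00 (limma adjusted p = 0.021), and vinculin (*VCL*), which strengthens that link, by 0.58 (limma adjusted p = 0.0382). The call of *VCL* was lost with quantile normalization (−0.37, limma adjusted p = 0.0728). *PDLIM5* and *PDLIM7*, which carry PDZ and LIM domains, fell by 0.94 and 0.62 (limma adjusted p = 0.013 and 0.0259).

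*FBLIM1*, which encodes migfilin, a partner of filamin at adhesions, was the member of this role that did not pass after *miR-486-3p*. Its levels were −1.26 and −1.28 in mock, −2.30 with *miR-486-5p* and −1.60 with *miR-486-3p*. It was lowest after *miR-486-5p*, with a difference of −1.03 (48.9% of mock, limma adjusted p = 0.051), against −0.33 with *miR-486-3p* (limma adjusted p = 0.0679). The 2 probes of *FBLIM1* disagreed in size, at −1.49 and −0.58 after *miR-486-5p* and at −0.68 and 0.02 after *miR-486-3p*.

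All 3 adducins, which cap filaments and join them to spectrin under the membrane, fell after *miR-486-3p*. *ADD1* had levels of −0.32 and −0.40 in mock, 0.10 with *miR-486-5p* and −1.69 with *miR-486-3p*. The strands lay on opposite sides of mock. It fell by 1.33 ± 0.0968 after *miR-486-3p*, to 39.7% of mock (limma adjusted p = 0.0101), and the difference after *miR-486-5p* was 0.46 (limma adjusted p = 0.0888). *ADD3* fell by 0.65 (limma adjusted p = 0.0311).

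*ADD2* had levels of −0.74 and −0.73 in mock, −1.41 with *miR-486-5p* and −2.99 with *miR-486-3p*. The mean of its 3 probes fell by 2.25 ± 0.0872 after *miR-486-3p*, to 21.0% of mock (limma adjusted p = 0.00823). The probes did not move alike, at −3.85, −2.68 and −0.23 for that difference. The probe at −3.85 was above background on 3 arrays only. Its level of −4.94 with *miR-486-3p* lay under the lowest signal above background there (−4.39). The size of its fall, and so of the fall of the mean, is uncertain. By its brightest probe alone, *ADD2* did not pass (−0.23, limma adjusted p = 0.137), and the difference between the strands turned from −1.58 to 0.51. *ADD2* is also in the study's list of putative targets.

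**Figure D4:**
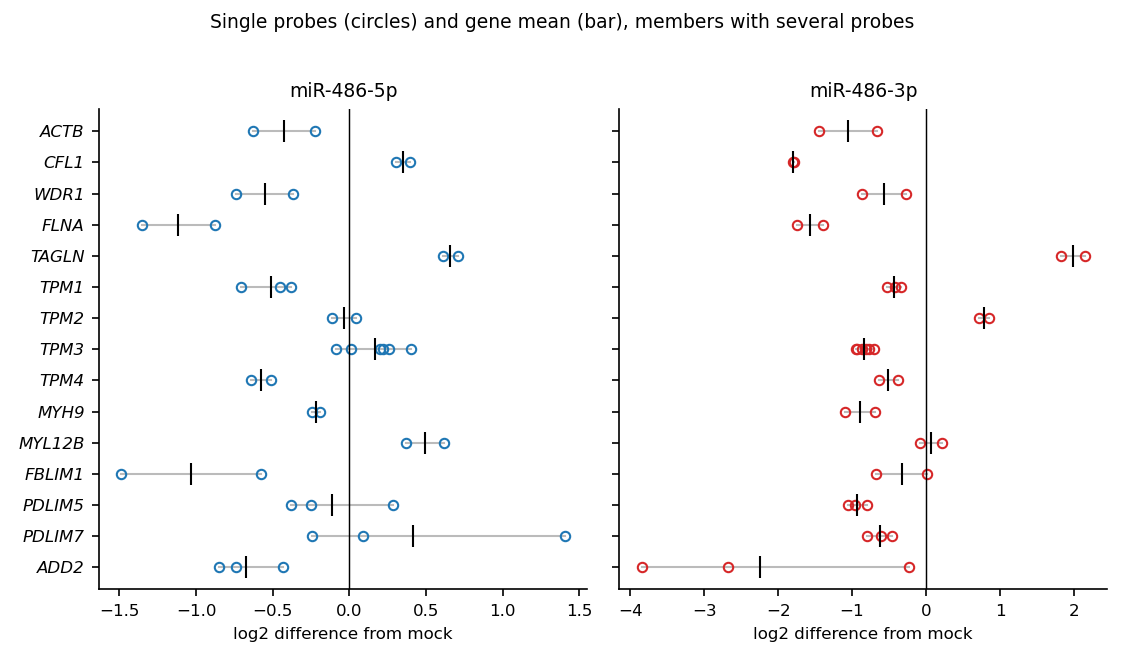
Log2 difference from mock of single probes (circles) and of the gene mean (bar) for the 15 members with more than 1 probe in use, after *miR-486-5p* (left) and *miR-486-3p* (right, wider axis). The *CFL1* probes coincide near −1.80 after *miR-486-3p*, whereas those of *ADD2* run from −3.85 to −0.23 and those of *PDLIM7* from −0.24 to 1.40 after *miR-486-5p*. The *ADD2* probe at −3.85 was not above background with *miR-486-3p*.

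With several probes, 15 members allowed a check within the gene. After *miR-486-3p* the probes of *MYL12B* and *FBLIM1* differed in sign, and after *miR-486-5p* those of *TPM2*, *TPM3*, *PDLIM5* and *PDLIM7*. Against mock, no gene had probes that passed limma in opposite directions. Between the strands *ADD2* did, with probes at −2.99 and 0.51 (limma adjusted p = 0.0119 and 0.0479). The probe at −2.99 was not above background with *miR-486-3p*.

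The strands were also compared directly, 1 array against 1 with the spread of the mock arrays. By limma, 17 members were lower after *miR-486-3p* than after *miR-486-5p* (41.5%, against 24% of all named genes) and 7 were higher (17.1%, against 23.4%). The median was −0.46, and 0.02 for all named genes. *ZYX*, *CFL1*, *ACTG1*, *ADD1* and *ADD2* were the lowest on the *miR-486-3p* side. The 7 higher members were *CNN1*, *TAGLN2*, *TAGLN*, *TPM2*, *DSTN*, *FBLIM1* and *SRF*. Of these, *TAGLN2*, *DSTN*, *FBLIM1* and *SRF* were nearer to mock after *miR-486-3p*, while *CNN1*, *TAGLN* and *TPM2* were above mock there. With no filter on dim probes, the strand difference no longer passed for *SRF*, *MRTFA*, *PFN1*, *DSTN*, *TAGLN2*, *CALD1*, *MYL9* and *TLN1* (limma adjusted p between 0.0502 and 0.103). With the authors' log2 values it no longer passed for *MRTFA*, *ACTB* and *MYL9* (0.052 to 0.0547), and with quantile normalization for *ACTB* (0.0553). The methods' t-test called no member in this comparison, and none of all named genes.

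**Figure D5:**
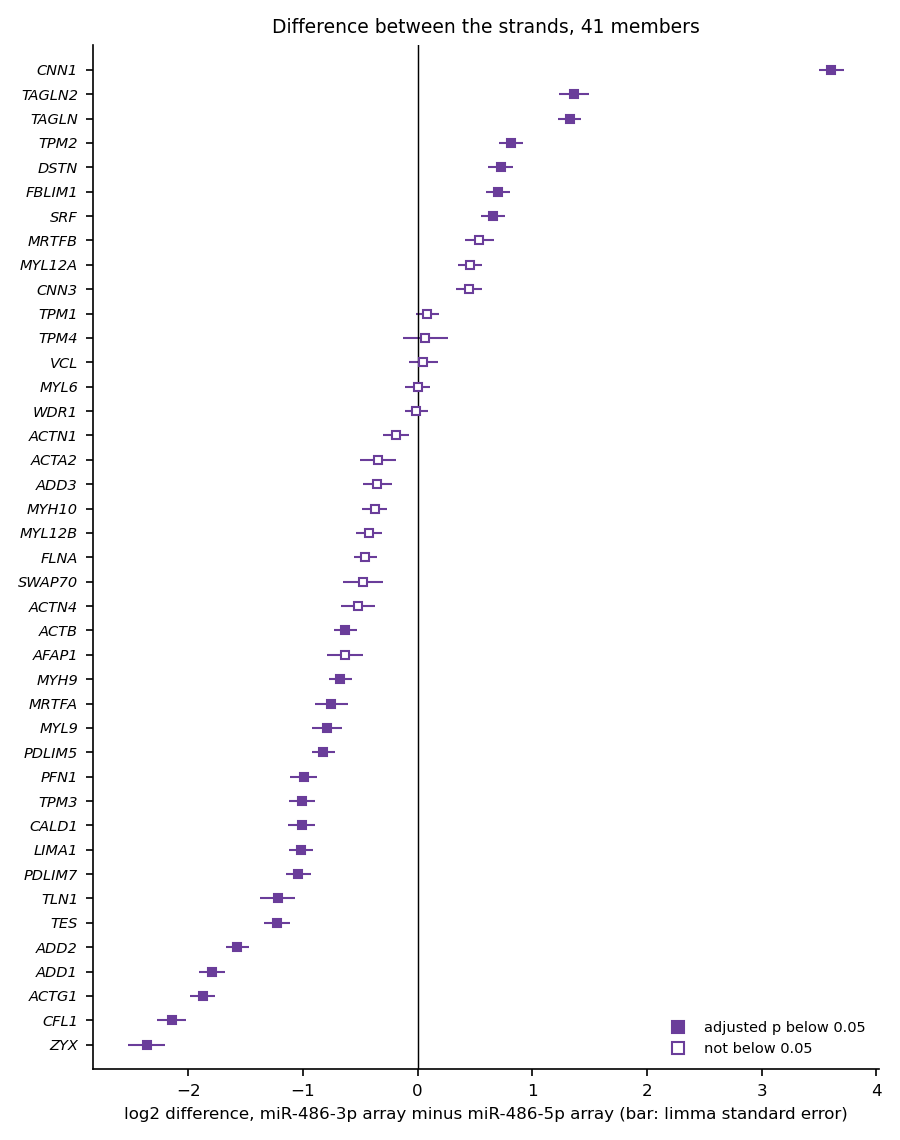
Log2 difference between the strands for the 41 members, *miR-486-3p* array minus *miR-486-5p* array, in order of size. Squares are filled where the limma adjusted p is below 0.05 and bars are limma standard errors; values run from −2.36 for *ZYX* to 3.61 for *CNN1*, whose *miR-486-5p* value was not above background.

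Members with and without the CArG box are given side by side. The 4 measured members with a box (*SRF*, *ACTG1*, *FLNA* and *TPM4*) had a median of −1.11 after *miR-486-3p*, and 3 of them fell. The 34 measured members with a window and no box had a median of −0.64, with 22 lower and 3 higher. Medians with *miR-486-5p* were −0.84 and −0.26. With 4 genes on one side, the groups were not tested against each other.

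Further genes of the pathway were followed in lists written from general knowledge. With *miR-486-5p* none of the 109 genes measured in the 10 lists, markers included, passed limma. An unadjusted p below 0.05 was reached by 51 (46.8%), near the 41.6% of all named genes. The counts of calls that follow stand beside shares of 28.4% lower and 28.6% higher among all named genes. Other targets of MRTF and SRF were mostly lower after *miR-486-3p*, where 7 of 10 measured fell and 1 rose. With *miR-486-5p*, where *SRF* was lowest, their median was 0.05, with 5 genes below the mock mean and 5 above. *CCN1*, a matrix protein gene driven by SRF and YAP, fell by 1.42 (limma adjusted p = 0.00947) and *FHL2*, a LIM protein that binds SRF, by 1.26 (limma adjusted p = 0.0101). *ANKRD1* fell to below background, at least 2.44-fold (limma adjusted p = 0.00823).

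The arm of SRF that runs through ternary complex factors went in both directions after *miR-486-3p*, with 3 of 7 lower and 4 higher. *FOS* had levels of −0.45 and −0.47 in mock, 1.78 with *miR-486-5p* and 2.63 with *miR-486-3p*. Both transfected arrays were high. *FOS* rose by 3.09 after *miR-486-3p* (limma adjusted p = 0.00823), *FOSB* by 2.78 (limma adjusted p = 0.00823), and *ELK1*, one of the factors, fell by 1.33 (limma adjusted p = 0.0171). *EGR2*, counted among the 4 higher, was not well above background in mock or after *miR-486-3p*. The median of the list after *miR-486-5p* was 1.64, with none of its 7 genes passing and *FOS* at 2.24 (limma adjusted p = 0.051). That median includes *EGR2*, which entered through the *miR-486-5p* array alone and could only be higher there.

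Upstream of SRF, genes that set the state of actin were also counted. The formins, which elongate unbranched filaments, had 5 of 12 lower and 1 higher after *miR-486-3p*, with *DIAPH3* at −2.41, *FHOD1* at −1.69 and *DAAM1* at 1.36 (limma adjusted p = 0.00823, 0.00848 and 0.0106). The Arp2/3 complex and its activators, which branch filaments, had 4 of 13 lower and 3 higher, close to the shares of all named genes, and a median of −0.13. *ARPC1B* fell by 2.19, *ARPC4* by 1.27 and *WASF1* by 1.03 (limma adjusted p = 0.00823, 0.00979 and 0.0194).

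Other genes of filament capping, severing and monomer binding had 6 of 17 lower and 3 higher, and a median of −0.08, near that of all named genes. *TMSB4X*, whose thymosin product buffers monomers, fell by 1.86 and *PFN2* by 1.01, while *TMOD1*, which caps pointed ends, rose by 1.47 (limma adjusted p = 0.00824, 0.0122 and 0.0263). Of 15 other focal adhesion genes, 7 fell and 1 rose. *PXN*, the scaffold paxillin, fell by 1.74, *FERMT1*, a kindlin, by 1.51 and *VASP*, which binds zyxin and extends filaments, by 1.19 (limma adjusted p = 0.0083, 0.00909 and 0.0103).

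*TAGLN* and *CNN1*, which rose, are known as smooth muscle genes, so muscle markers are given beside them. Of 12 muscle markers 6 had a probe in use. *MYH11* and *SYNPO2* entered through the *miR-486-3p* array alone and could only count as higher there, so no tally is drawn from the list. *MYH11*, the smooth muscle myosin heavy chain, was at least 9.41-fold higher after *miR-486-3p*. *SYNPO2* was at least 1.63-fold higher. No test is given for *MYH11* and *SYNPO2*, because the filter fixed their direction. *ACTA1*, skeletal actin and above background on all 4 arrays, rose by 3.60 ± 0.333 (limma adjusted p = 0.0128). Its mock levels, −4.61 and −4.00, lay 0.612 apart, a wider gap than for any member. The first was near the lowest signal above background on that array (−4.73), so the size of the rise is uncertain. *MYOCD*, *LMOD1*, *ACTG2*, *ACTC1*, *MYH7* and *CKM* had no probe in use. The summed level of the 6 markers, in units of the 75th percentile of the array, was 3.39 and 3.41 in mock, 2.59 with *miR-486-5p* and 7.43 with *miR-486-3p*. In mock and with *miR-486-3p*, though not with *miR-486-5p*, most of this sum is *SYNM*. This gene encodes the intermediate filament protein synemin and was singled out after its values were seen. *SYNM* had levels of 0.93 and 0.96 in mock, −0.56 with *miR-486-5p* and 2.33 with *miR-486-3p*. Without it the sum was 1.48 and 1.47 in mock, 1.92 with *miR-486-5p* and 2.40 with *miR-486-3p*. *TNNT2*, a further marker, entered through the *miR-486-5p* array alone and could only be higher there. *MYH11* and *SYNPO2* were not above background in mock or with *miR-486-5p*. The median difference of the 6 markers with *miR-486-5p* (0.69) and both sums include these genes. No direction is therefore read from the median or the sums. *ACTA2*, also a smooth muscle gene, fell after *miR-486-3p*. Of 9 epithelial or A549 markers measured, 4 fell and 2 rose after *miR-486-3p* (*AKR1B10*, 1 of the 2, entered through that array alone), and of 6 measured markers of blood, vessel and stromal cells, 1 fell and 1 rose. The part of these markers in the results was not tested.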

How the data were processed

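Total RNA of the 4 samples (Trizol) was labelled with Cy3 and scanned on 1 slide in 1 scan. The authors deposited, per array, Agilent Feature Extraction (version 12.1.1.1) output with the intensity of each spot, background-corrected by that software, and a table of log2 values. The deposited log2 values correlated with the scanner's at 0.99986 or more and had a median of 2.76 on every array, and their normalization is not given in the sources used here. The submitters' processing notes name the Feature Extraction software.

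From the intensity the log2 was taken and the 75th percentile over 60901 spots that are not controls was subtracted per array. Outlier spots were left out (50 to 72 per array), no spot was saturated, and spots of a probe were averaged. The 75th percentile of the signal was 93.1 to 114, and 30690 to 31516 of 58201 probes were well above background. Of 33080 probes with a RefSeq accession, 31104 matched 22439 genes in a table of GRCh38.p14. A probe entered if well above background on every array of at least 1 group (33500 probes), and probes of a gene were averaged, which gave 27837 features.

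limma 3.58.1 (R 4.3.3) was fitted to 3 groups with lmFit and eBayes, two-sided, with 1 residual degree of freedom and a prior of 1.73 degrees of freedom and SD 0.0894. The fit was tested on simulated data. A gene not above background in a group was bounded at the lowest signal among probes above background on that array. CArG boxes were searched in RefSeq promoters.

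Values on all arrays are given for *SRF*, *MRTFA*, *MRTFB*, the 5 members of the study's target list and the 10 largest called differences among members above background on all arrays, and of each other list at most 3 genes. The genes of 1 list are counted in the total over lists and are not otherwise reported here. The members and lists were chosen with earlier results of these data known. Alternatives were other scalings, background correction, filters, probe rules, tests and each mock array left out.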

Additional observations from a re-analysis of the deposited data

Results flagged for a closer look

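In 12 members the strands lay on opposite sides of both mock arrays, and the difference between the strands passed limma, with 1 array on each side. The share of all named genes with this pattern is not given here. Of all named genes, 42.2% lay below and 47.1% above both mock arrays with *miR-486-5p*, and 44.9% and 49.5% with *miR-486-3p*. None of the 12 passed limma against mock after *miR-486-5p*. *ACTG1*, *MYL9*, *TLN1* and *TPM3* lay close to mock there, with differences of 0.12, 0.12, 0.22 and 0.17. Lower on the *miR-486-3p* array, as the log2 value after *miR-486-3p* minus that after *miR-486-5p*, were *CFL1* (−2.15), *ACTG1* (−1.88), *ADD1* (−1.79), *TLN1* (−1.22), *PDLIM7* (−1.04), *LIMA1* (−1.02), *CALD1* (−1.01), *TPM3* (−1.01) and *MYL9* (−0.79). Higher on it were *CNN1* (3.61, its *miR-486-5p* value not above background), *TPM2* (0.81) and *DSTN* (0.72). For *TPM2* the *miR-486-5p* array lay only just below the lower mock array, at 6.60 against 6.61, and for *DSTN* the *miR-486-3p* array only just above the higher one, at 6.47 against 6.46. After *miR-486-5p*, the probes of *PDLIM7* ran from −0.24 to 1.40 and those of *TPM3* from −0.09 to 0.40. With no filter on dim probes, the strand difference of *DSTN*, *CALD1*, *MYL9* and *TLN1* no longer passed limma (adjusted p between 0.0513 and 0.0794), and with the authors' log2 values that of *MYL9* (limma adjusted p = 0.0547). With the methods' t-test none passed after adjustment.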

How the results depend on the processing

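After *miR-486-5p*, members called lower numbered 0 as reported, 6 with median scaling, quantile normalization, the brightest probe or limma on single probes, 15 with probes above background on all 4 arrays, 20 with an intensity trend in limma and 22 with normexp background correction. Members called higher numbered 0 as reported, 1 with the brightest probe or single probes, 7 with probes above background on all 4 arrays, and 8 with the intensity trend or normexp. Over all 16662 named genes, both directions together, these settings called 0 as reported, 1055 (median scaling), 1196 (quantile), 1249 (brightest probe), 6512 (normexp) and 6887 (trend). With probes above background on all 4 arrays the count was 4920 of 14960 named genes. The authors' log2 values, no filter on dim probes and the methods' t-test called 0. The t-test had 11 of 41 members at an unadjusted p below 0.05, against 3577 of 16662 named genes. Members below −0.5 numbered 16, 15 with *CNN1* at its bound, 10 with normexp and 6 at a limit of −1 (13 to 16 without either mock array). Members above 0.5 numbered 3, 5 with quantile normalization, the authors' log2 values or the brightest probe, 1 with normexp and 0 at a limit of 1 (3 to 4 without either mock array). The median of −0.30 was −0.33 with median scaling, −0.21 with normexp, −0.26 with probes above background on all 4 arrays, and −0.26 to −0.24 without either mock array.

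After *miR-486-3p*, the methods' t-test called 0 members lower and 0 higher after adjustment. It had 19 members at an unadjusted p below 0.05, against 6152 of 16662 named genes. At a limit of 1, 12 were lower and 2 higher (26 to 27 and 4 at the limit of 0.5 without either mock array). Shares of all named genes at a limit of 1 are not given here for either strand. The median of −0.65 was −0.76 with median scaling, which moved the median of all named genes from 0.05 to −0.05, −0.67 with quantile normalization, −0.68 with the authors' log2 values, −0.52 with normexp, −0.66 with probes above background on all 4 arrays and −0.66 to −0.65 without either mock array. Between the strands, the t-test called 0 lower and 0 higher, and no filter on dim probes left 4 higher of 7. The t-test had 17 members at an unadjusted p below 0.05, against 5419 of 16662 named genes. The median of −0.46 was −0.53, −0.44, −0.45, −0.24, −0.47 and −0.40 with median scaling, quantile normalization, the authors' log2 values, normexp, probes above background on all 4 arrays and the brightest probe. For *ADD2* the strand difference turned to 0.51 with the brightest probe. No filter on dim probes was also the setting, t-test aside, in which most calls of members were lost (16).

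Leaving out a mock array leaves no residual degree of freedom, so those values have no test. No paired analysis was possible because the transfected groups hold a single array each. A slide block could not be fitted, since all arrays share 1 slide. Normexp used the median spot signal, since the mean spot signal was not used here.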
